A study of Mus musculus with 6 samples.

Results

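The genes described are 9 matrix metalloproteinases (Mmp2, Mmp3, Mmp7, Mmp9, Mmp10, Mmp12, Mmp13, Mmp14 and Mmp19) and Timp1, an inhibitor of these enzymes, in mouse colon. They were found by gene symbol, and each of the 10 had 1 row among the 21899 genes of the deposited count table. The samples were 3 colon RNA libraries of Adamts4 knockout mice (KO) and 3 of wild-type mice (WT). Both groups had received 2.5% dextran sodium sulfate (DSS), a polymer that injures the colonic epithelium and causes acute colitis, for 7 days. Adamts4 encodes a secreted metalloproteinase that cleaves large proteoglycans. The labels do not state strain, age, sex, the kind of knockout allele or whether each library came from 1 animal. A difference in strain between the groups, if there was one, cannot be told apart from the knockout. The p-values therefore measure only the spread among these 6 libraries, which may be technical. No untreated colon was analysed here. Each comparison therefore sets KO against WT under the same treatment.

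Matrix metalloproteinases are zinc-dependent enzymes that are made as inactive precursors, become active when a propeptide is removed, and cleave collagens, other matrix proteins, cytokines and growth factors. Tissue inhibitors of metalloproteinases (TIMPs) bind the active site of the mature enzymes. In inflamed gut, fibroblasts, macrophages, neutrophils and wound-edge epithelium are known sources of different members of the family. RNA levels of precursors say nothing of how much enzyme was active.

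The libraries held between 15786214 and 22932125 counts. Adamts4 had no count in any KO library, which allows up to 0.147 to 0.19 CPM (counts scaled to a common library size) in each, and stood at 38.5, 50.5 and 56.0 CPM in WT libraries. All 5 colon markers and all 6 epithelial markers passed the expression filter. Libraries differed in their markers of other cell types. The summed level of 9 fibroblast markers, such as Pdgfra, Dcn and Col1a1, was 4050, 2300 and 637 CPM in KO 1, KO 2 and KO 3, against 2960, 2130 and 4500 CPM in WT 1, WT 2 and WT 3. Most of this sum came from Col1a1, Col1a2 and Col3a1, with means of 437, 465 and 1120 CPM in KO libraries. Their means in WT libraries were 499, 585 and 1490 CPM. Pdgfra, Dcn and Pdpn were lower in every KO library than in any WT library, whereas the other fibroblast markers overlapped. KO 3 was the lowest library for the summed fibroblast, macrophage, neutrophil and endothelial markers. It also lay at one end of the first principal component (42.9% of the variance), at 73.1, against -47 to 26.5 for the others. Summed colon markers (18300 to 25000 CPM in KO, 11600 to 15500 CPM in WT) and smooth muscle markers (2820 to 3330 CPM in KO, 1700 to 2680 CPM in WT) were higher in every KO library. Erythroid markers were lower in every KO library (81.2 to 236 CPM in KO, 381 to 1700 CPM in WT). So were summed endothelial markers (58.7 to 178 CPM in KO, 195 to 242 CPM in WT) and the neutrophil markers given below. Mitochondrial genes took 4.03%, 7.66% and 9.5% of counts in the KO libraries, against 6.05%, 4.29% and 4.46% in the WT libraries. The part of these differences in the results was not tested. In such bulk tissue, fewer cells of a type and less RNA per cell cannot be told apart.

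Fitted log2 fold changes (KO minus WT) were below 0 for all 10 genes, with a median of -1.59, against a median of 0.035 over the 14553 genes tested, of which 45.8% lay below 0. Mmp3 alone passed an adjusted p below 0.05 in edgeR's quasi-likelihood test, a threshold at which 0.151% of all tested genes were called lower. DESeq2 called 5 of the 10 lower (Mmp3, Mmp10, Mmp13, Mmp19 and Timp1), against 2.97% of the genes for which it gave an adjusted p. At an unadjusted edgeR p below 0.05, 6 of the 10 were lower, against 7.85% of all genes. The same 6 genes, the 5 above and Mmp12, had every KO library below every WT library, a pattern seen in 10.2% of all genes. Mmp2, Mmp7, Mmp9 and Mmp14 had overlapping groups. The exact permutation test on 3 against 3 libraries cannot go below a two-sided p of 0.1, which each of the 6 genes without overlap reached.

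**Figure D1:**
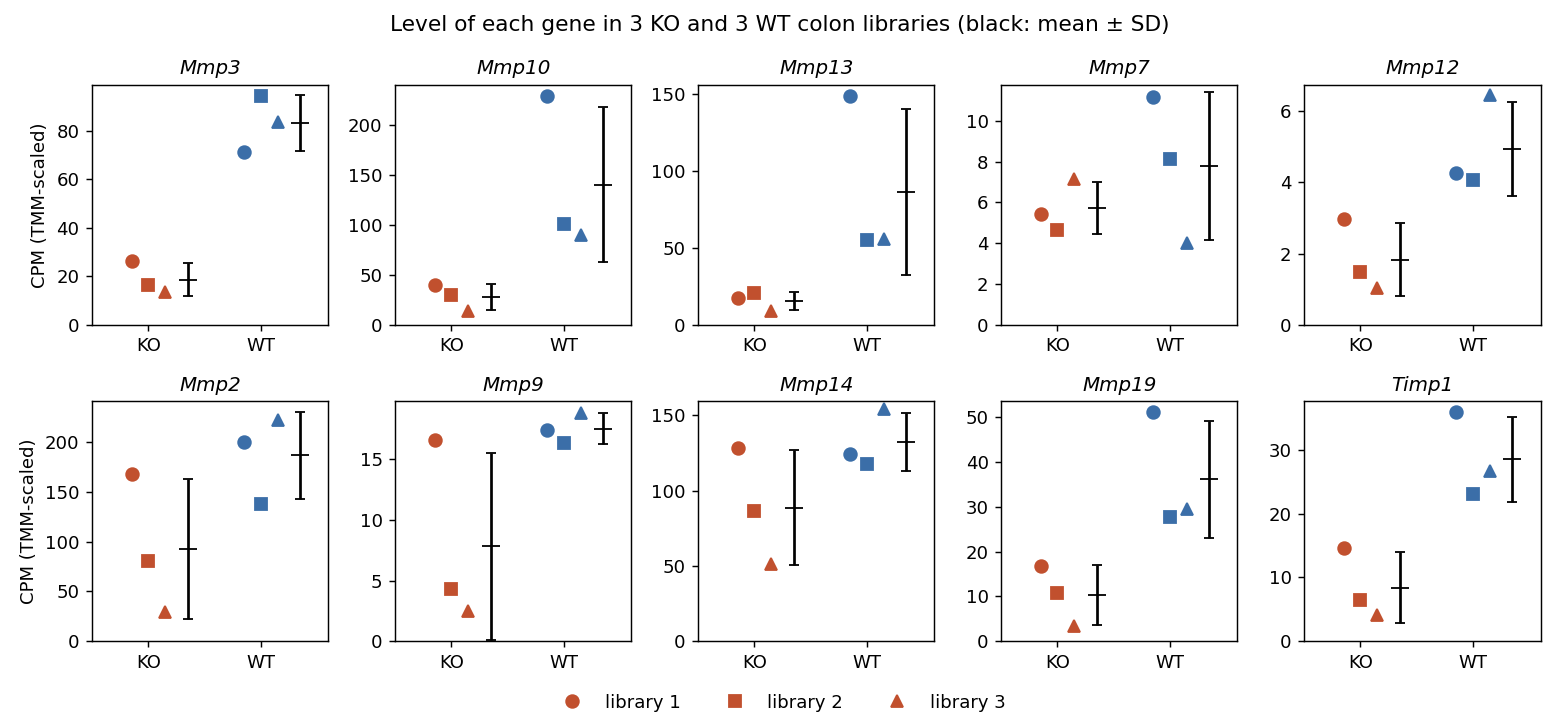
CPM of each gene (vertical axes, scaled with TMM factors) in the 3 KO and 3 WT libraries, with library number shown by the symbol and mean ± SD in black. KO and WT values of Mmp3, Mmp10, Mmp13, Mmp12, Mmp19 and Timp1 do not overlap, and KO 1 lies within the WT values of Mmp2, Mmp9 and Mmp14.

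The stromelysin genes Mmp3 and Mmp10 and the collagenase gene Mmp13 showed the largest differences of the 10. Stromelysins degrade proteoglycans, laminin and fibronectin and can activate other metalloproteinase precursors, and Mmp13 is the main interstitial collagenase of rodents. Mmp3 stood at 26.1, 16.4 and 13.3 CPM in KO 1, KO 2 and KO 3, against 71.4, 94.6 and 83.7 CPM in WT 1, WT 2 and WT 3. It fell to 18.6 ± 6.71 CPM in KO libraries, against 83.2 ± 11.6 CPM in WT libraries (SD, n = 3 each), a log2 fold change of -2.16 ± 0.26 (SE, edgeR adjusted p = 0.0434). The highest KO library was well below the lowest WT library, and neither group spanned more than 1.96-fold.

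Mmp10 had 39.8, 29.4 and 14.0 CPM in the KO libraries, against 229, 101 and 89.8 CPM in the WT libraries. Its log2 fold change was -2.33 ± 0.47 (SE), with an adjusted p of 0.102 in edgeR and 4.03e-06 in DESeq2. WT 1 was more than 2-fold above the other WT libraries, and all KO libraries lay below all WT libraries. Mmp13 had 17.3, 20.5 and 9.18 CPM in the KO libraries, against 149, 55.0 and 55.9 CPM in the WT libraries. Its log2 fold change of -2.47 ± 0.46 had an adjusted p of 0.0848 in edgeR and 7.47e-07 in DESeq2. The pattern was that of Mmp10, with WT 1 apart and no overlap between groups. Without WT 1 the log2 fold changes of Mmp10 and Mmp13 were -1.79 and -1.83. Mmp10 and Mmp13 were the most similar pair among the 10 genes, with a root mean square difference of 0.226 between their centred log2 levels over the 6 libraries.

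The call of Mmp3 in edgeR depended on which library was left out. It was kept without KO 1 (adjusted p = 0.0201) and missed the threshold without KO 2 (0.237), KO 3 (0.0627), WT 1 (0.0605), WT 2 (0.152) or WT 3 (0.0619), while its log2 fold change stayed between -2.49 and -1.97. In the authors' deposited table the false discovery rates were 2.19e-12 for Mmp3, 5.84e-07 for Mmp13 and 3.27e-06 for Mmp10. They were 0.0014 for Timp1 and 0.0049 for Mmp19, and ran from 0.062 for Mmp12 to 0.81 for Mmp7 among the rest. These values come from the same 6 libraries and are not independent of the fits given here.

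**Figure D2:**
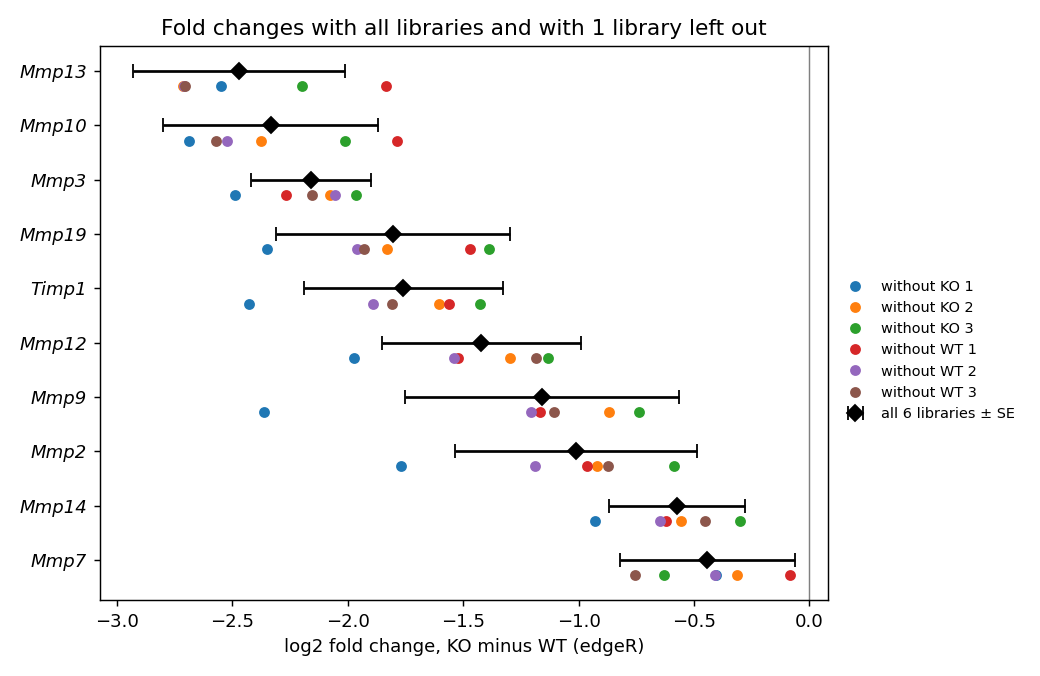
Log2 fold change of each gene, KO minus WT, from edgeR with all 6 libraries (black, ± SE) and with each library left out in turn (coloured points). All points lie below 0, and leaving out KO 1 gave the lowest value for 8 of the genes shown, while leaving out KO 3 gave the highest value for 7.

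Mmp3, Mmp10 and Mmp13 lie in 1 gene cluster. On GRCm38 (GENCODE M21) the cluster runs from Mmp13 to Mmp7 on chromosome 9, chr9:7272514-7699585, over 427 kb with 9 metalloproteinase genes annotated as protein-coding and no other gene so annotated inside it. Mmp1a, which that release annotates as a polymorphic pseudogene, also lies inside and had no count in any library. Along the cluster the log2 fold changes were -2.47 ± 0.46 for Mmp13, -1.42 ± 0.43 for Mmp12, -2.16 ± 0.26 for Mmp3, -2.33 ± 0.47 for Mmp10, -4.16 ± 0.64 for Mmp8 (SE, edgeR adjusted p = 0.0595) and -0.44 ± 0.38 for Mmp7. Mmp1b, Mmp27 and Mmp20 had at most 10 counts summed over either group. The nearest protein-coding genes outside were Dcun1d5 before Mmp13, at 0.23 ± 0.14, and Tmem123 after Mmp7, at -0.25 ± 0.19. Farther out, Birc2, Birc3 and Yap1 stood at -0.06, -0.13 and -0.15, Cep126 at 0.25 ± 0.46, Dync2h1 at -0.47 ± 0.33 and Cfap300 at -0.795 ± 0.544, the last 2 beyond the value of Mmp7. The edgeR adjusted p of these 8 outside genes lay between 0.54 and 0.925.

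**Figure D3:**
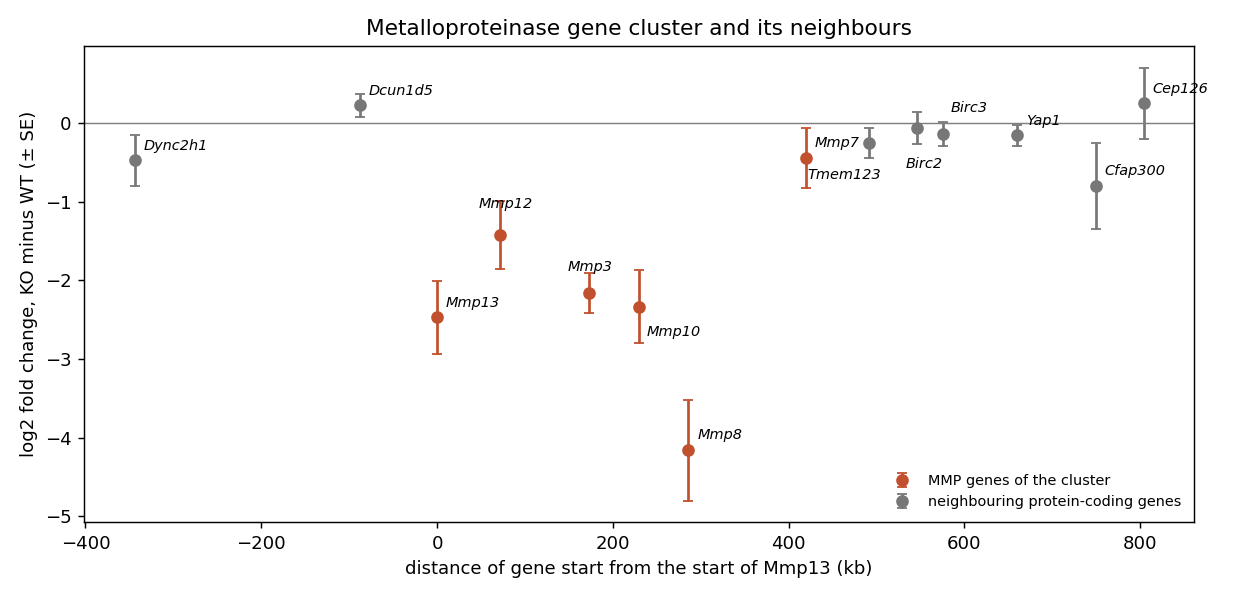
Log2 fold change (KO minus WT, ± SE) of the tested genes in and around the metalloproteinase cluster, plotted against the distance of each gene's start from that of Mmp13 in kb. Values from Mmp13 to Mmp8 lie between -1.42 and -4.16, Mmp7 stands at -0.44, and the outside genes lie between -0.795 (Cfap300) and 0.25 (Cep126).

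The 200 bases before the RefSeq start (GRCm38.p6, plus strand) are shown for the 3 members with the largest differences, which all lie in the cluster. Capitals mark the match to TGANTCA, a pattern that includes the AP-1 element but, with N for any base, is wider than it. The pattern is the same on both strands, while a match such as TGAGTCA reads TGACTCA on the other strand.
Mmp3, chr9:7445622-7445821: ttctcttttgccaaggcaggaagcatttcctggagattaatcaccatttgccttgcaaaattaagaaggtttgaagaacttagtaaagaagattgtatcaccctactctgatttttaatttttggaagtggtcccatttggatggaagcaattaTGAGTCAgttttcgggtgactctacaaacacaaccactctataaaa
Mmp10, chr9:7502142-7502341: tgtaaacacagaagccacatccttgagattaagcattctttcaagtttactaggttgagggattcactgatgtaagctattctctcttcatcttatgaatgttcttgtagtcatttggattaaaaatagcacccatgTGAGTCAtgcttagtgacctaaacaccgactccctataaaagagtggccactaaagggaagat
Mmp13, chr9:7272314-7272513: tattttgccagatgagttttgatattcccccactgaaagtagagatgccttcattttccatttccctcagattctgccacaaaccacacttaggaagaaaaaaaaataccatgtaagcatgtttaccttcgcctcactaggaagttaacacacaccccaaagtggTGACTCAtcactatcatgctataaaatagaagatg

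The match begins 46 bases before the start in Mmp3, 63 in Mmp10 and 35 in Mmp13. RefSeq windows were held for 7 of the 10 genes. Within the 250 bases before the start, TGANTCA was found in 5 of these 7 (Mmp3, Mmp7, Mmp10, Mmp12 and Mmp13) and in 6.75% of all 32851 windows. Over 27025 genes, with a single window each, 6.87% held it. For each motif, a member was counted if any of its windows held a match. Mmp7, whose groups overlapped, holds the match at 63 bases as Mmp10 does, but before the first of its starts only. Mmp12 holds it before the second of its starts only. Clustered family members share ancestry, so their windows are not independent. The motif AGGAAG, of ETS factors, was found on either strand in 6 of the 7 and in 29.5% of all windows (29.2% by gene). The TATA box letters TATAAA were found in 4 of the 7 and in 12.4% of all windows (13.0% by gene). No match overlapped one of another motif. Among tested genes with a window, the 679 that hold TGANTCA had a median log2 fold change of -0.025, against 0.045 for the 10595 without it. The matches are a description of the letters in these windows.

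Mmp7 and Mmp12 had the lowest mean TPM in either group among the members in the cluster. Mmp7, matrilysin, is an epithelial protease that in mice activates the defensins of Paneth cells. It had 5.44, 4.65 and 7.14 CPM in the KO libraries and 11.2, 8.15 and 3.99 CPM in the WT libraries. The groups overlapped, with WT 3 the lowest of all 6, and the log2 fold change of -0.44 ± 0.38 did not pass (edgeR adjusted p = 0.665). Mmp7 was the one gene of the 10 whose lowest value was not in KO 3. Of 5 Paneth markers, the 4 defensin genes had at most 8 counts summed over either group, and the lysozyme gene Lyz1 had 2.93, 5.58 and 5.58 CPM in the KO libraries and 1.67, 5.2 and 5.73 CPM in the WT libraries. Mmp12, the macrophage elastase, had 2.98, 1.49 and 1.02 CPM in the KO libraries, against 4.28, 4.07 and 6.46 CPM in the WT libraries. The groups did not overlap, with KO lower, and the log2 fold change of -1.42 ± 0.43 did not pass in edgeR (adjusted p = 0.237) or, narrowly, in DESeq2 (0.0505). Summed macrophage markers were 516, 343 and 131 CPM in the KO libraries, against 400, 615 and 729 CPM in the WT libraries, so KO 3 was the lowest library for both. Mmp12 overlaps Mmp1b on the opposite strand and Mmp7 overlaps AV064505, and the sources used here do not say whether counting used the strand.

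The gelatinase genes Mmp2 and Mmp9 and the membrane-bound Mmp14, which activates the Mmp2 precursor at the cell surface, did not pass in any fit with all 6 libraries. Mmp2, a product mainly of fibroblasts, had 168, 80.1 and 29.4 CPM in the KO libraries, against 200, 138 and 222 CPM in the WT libraries. KO 1 lay within the WT values while KO 3 was 5.73-fold below KO 1. The log2 fold change was -1.01 ± 0.52 (edgeR adjusted p = 0.453), with -1.77 without KO 1 and -0.59 without KO 3.

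Mmp9, a gelatinase of neutrophils and macrophages that is also made by other cells, had 16.6, 4.28 and 2.52 CPM in the KO libraries, against 17.4, 16.3 and 18.8 CPM in the WT libraries. The WT libraries were close together, KO 1 was among them, and KO 2 and KO 3 were far below. Its log2 fold change was -1.16 ± 0.59 (edgeR adjusted p = 0.449) and became -2.36 without KO 1 (adjusted p = 0.0467) and -0.74 without KO 3. Mmp14 had 128, 86.7 and 51.6 CPM in the KO libraries, against 124, 118 and 154 CPM in the WT libraries. It had the smallest fold difference after Mmp7, -0.57 ± 0.30 (adjusted p = 0.452), with KO 1 inside the WT range.

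Mmp19, a secreted metalloproteinase that can cleave basement membrane proteins, had 16.8, 10.7 and 3.49 CPM in the KO libraries, against 51.1, 27.8 and 29.4 CPM in the WT libraries. All KO libraries were below all WT libraries, although KO 1 and KO 3 differed 4.81-fold. Its log2 fold change was -1.80 ± 0.51, with an adjusted p of 0.207 in edgeR and 0.00473 in DESeq2. Timp1, the inducible member of the TIMP family, had 14.6, 6.51 and 4.08 CPM in the KO libraries, against 35.9, 23.0 and 26.6 CPM in the WT libraries. The groups did not overlap, and the log2 fold change of -1.76 ± 0.43 had an adjusted p of 0.162 in edgeR and 0.00132 in DESeq2. Without KO 1 it was -2.43 and passed in edgeR (adjusted p = 0.0488). Mmp19 and Timp1 were the second most similar pair of the 10, with a root mean square difference of 0.278. Both overlap genes on the opposite strand (Tmem198b and Gm47093 for Mmp19, Syn1 for Timp1).

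Enzyme and inhibitor RNA can be set against each other only per length, so the authors' TPM values, scaled by gene length and library total, were used. The summed TPM of the 9 metalloproteinase genes was 297, 202 and 94.0 in the KO libraries, against 690, 466 and 501 in the WT libraries. Timp1 stood at 30.14, 14.36 and 7.694 TPM in the KO libraries, against 76.25, 50.01 and 55.98 TPM in the WT libraries. Both were lower in every KO library than in any WT library. The sum was 9.84, 14.1 and 12.2 times the Timp1 level in the KO libraries, against 9.05, 9.32 and 8.96 times in the WT libraries. The ratio was thus somewhat higher in each KO library, and KO 1 lay close to the WT values. Timp1 itself had a log2 fold change of -1.76, against a median of 0.035 over all tested genes. A gene with no difference between the groups would therefore also be higher against Timp1 in KO libraries. The share of all genes that were higher against Timp1 in every KO library was not computed. The higher ratio is therefore not read as a result about these enzymes, and it was not tested. Timp2 and Timp3 are not part of this ratio. Their means in WT libraries were 198 and 157 CPM, against 28.5 CPM for Timp1, with CPM not corrected for length.

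The share of each gene in the summed TPM separated the groups for 4 of the 9 genes. Mmp14 took 29.7%, 33.0% and 34.6% of the summed TPM in the KO libraries, against 12.7%, 18.4% and 21.7% in the WT libraries. Mmp10 took 13.9%, 16.2% and 14.1% in the KO libraries, against 35.4%, 23.6% and 18.9% in the WT libraries. Mmp13 took 3.87%, 7.26% and 5.95% in the KO libraries, against 14.8%, 8.29% and 7.56% in the WT libraries. These 3 shares did not overlap between groups, and neither did that of Mmp19, which was lower in KO, whereas those of Mmp2, Mmp3, Mmp7, Mmp9 and Mmp12 did. Set against the same summed TPM, 80.4% of all tested genes were higher in every KO library, as Mmp14 was, and 0.591% were lower in every KO library, as Mmp10, Mmp13 and Mmp19 were. The shares were not tested. In KO 2 and KO 3 Mmp14 was the most abundant of the 9 by TPM and in KO 1 it followed Mmp2, while Mmp10 led in WT 1 and WT 2 and Mmp2 in WT 3. Shares sum to 100%, so a lower share of one gene raises the others.

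**Figure D4:**
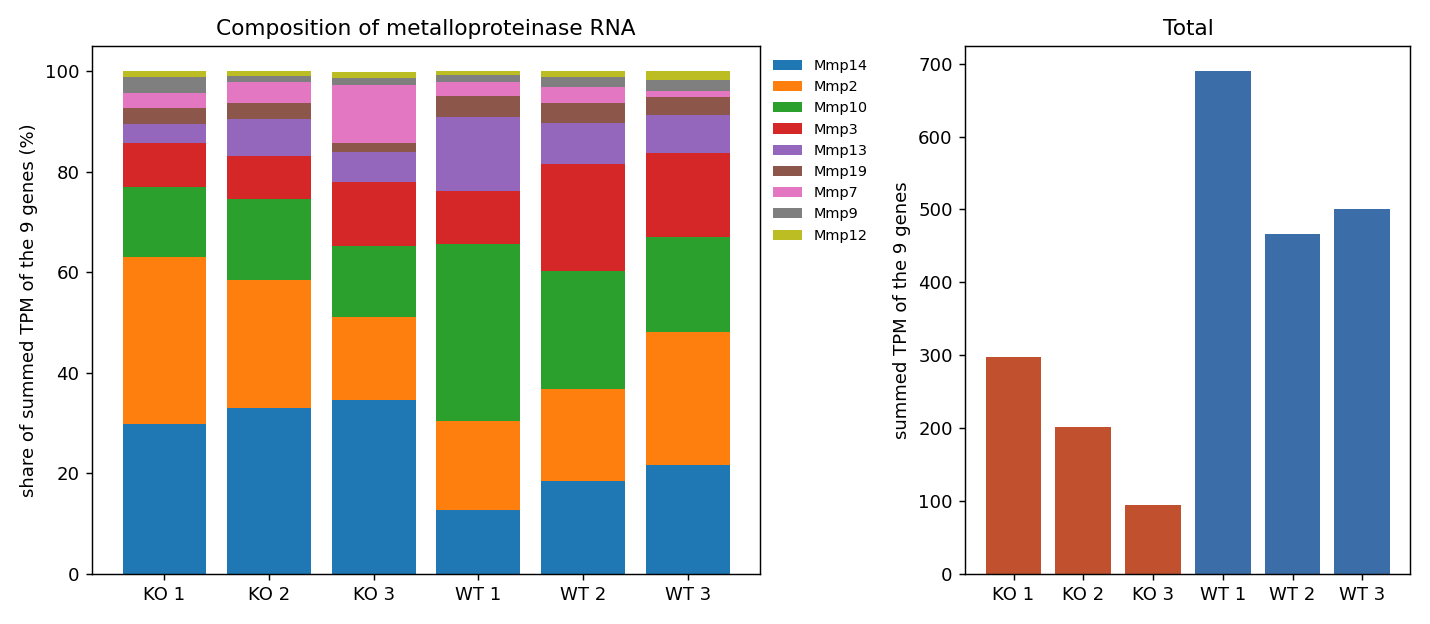
Left, share (%) of each of 9 metalloproteinase genes in their summed TPM per library. Right, the summed TPM, which lies between 94.0 and 297 in the KO libraries and between 466 and 690 in the WT libraries. The share of Mmp14 is larger in each KO bar than in any WT bar, and the shares of Mmp10 and Mmp13 are smaller.

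The members were also set against cell type markers within each library, which needs no scaling factor. Mmp3 had 0.646, 0.71 and 2.09 counts per 100 fibroblast marker counts in KO 1, KO 2 and KO 3, against 2.41, 4.45 and 1.86 in WT 1, WT 2 and WT 3. In KO 3, the library poorest in fibroblast markers, the ratio of Mmp3 was above that of WT 3, the library richest in them. Mmp10 had 0.984, 1.28 and 2.2 counts per 100 fibroblast marker counts in the KO libraries, against 7.75, 4.73 and 2.0 in the WT libraries. Ratios of Mmp2, Mmp9 and Mmp19 to the summed fibroblast markers were lower in every KO library than in any WT library. The same held for 1.11% of all tested genes. Counts of Col1a1, Col1a2 and Col3a1 make up most of the sum, so these are mainly ratios to collagen RNA. Ratios to single fibroblast markers such as Pdgfra or Dcn were not computed. Mmp2 had 4.15, 3.48 and 4.61 counts per 100 in the KO libraries, against 6.77, 6.5 and 4.93 in the WT libraries. Its spread among the KO libraries was thus far smaller per fibroblast marker count than in CPM.

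Mmp14 per 100 fibroblast marker counts was 3.15, 3.76 and 8.1 in the KO libraries and 4.2, 5.55 and 3.41 in the WT libraries, with overlapping groups. Relative to macrophage markers, Mmp3, Mmp10, Mmp13, Mmp19 and Timp1 were lower in every KO library than in any WT library, as were 1.13% of all tested genes. Summed neutrophil markers were 37.4, 14.9 and 10.3 CPM in the KO libraries, against 189, 91.3 and 87.3 CPM in the WT libraries. Relative to these, no member was lower in all KO libraries, and 7 (Mmp2, Mmp7, Mmp9, Mmp12, Mmp14, Mmp19 and Timp1) were higher in every KO library than in any WT library, as were 93% of all tested genes. Mmp9, for example, had 44.4, 28.6 and 24.5 counts per 100 neutrophil marker counts in the KO libraries, against 9.16, 17.9 and 21.5 in the WT libraries. The summed neutrophil markers were thus lower in the KO libraries by more than Mmp9 and these other members were. This did not hold for each marker. Log2 fold changes were -3.22 for S100a8, -2.78 for S100a9, -2.59 for Ltf, -4.16 for Mmp8 and -8.86 for Ngp. Those of Cxcr2 and Csf3r were -1.34 and -0.71, against -1.16 for Mmp9 and -1.80 for Mmp19. Ratios to single markers were not computed. The exact permutation p was 0.1 for each of the 15 ratios without overlap among 30 computed, the smallest that 3 against 3 allows, and the Benjamini-Hochberg adjusted value was 0.2. The part of these cell types in the differences was not tested.

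**Figure D5:**
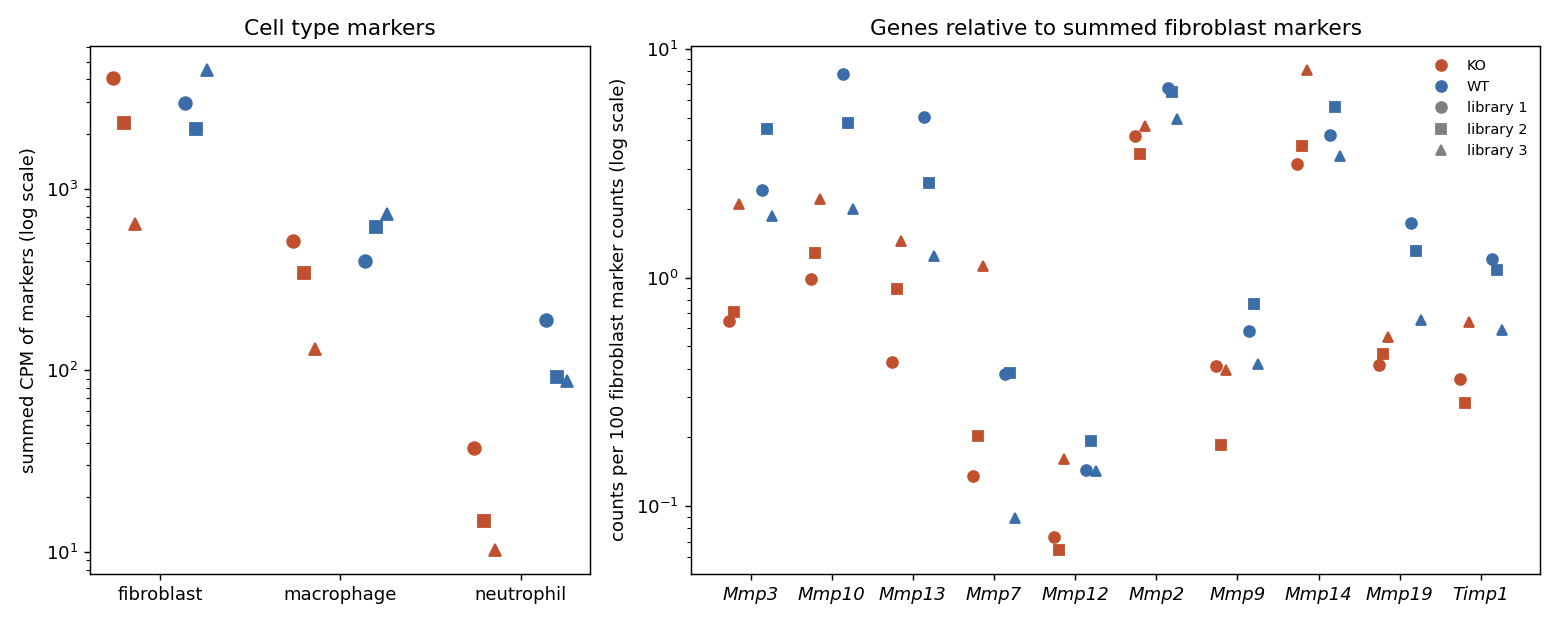
Left, summed CPM of fibroblast, macrophage and neutrophil markers in each library on a log axis. Right, counts of each gene per 100 fibroblast marker counts on a log axis. Neutrophil marker sums of the KO libraries (10.3 to 37.4 CPM) lie below those of the WT libraries (87.3 to 189 CPM), fibroblast sums overlap, and KO 3 is lowest in all 3 lists.

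Among the other metalloproteinase genes, none of 9 tested passed in edgeR, 2 were lower at an unadjusted p below 0.05, and 1, the neutrophil collagenase gene Mmp8, was lower in DESeq2. Their median log2 fold change was -0.08. Over all tested genes, 7.85% were lower at that unadjusted p, and 2.97% of those given an adjusted p by DESeq2 were lower there. Mmp8 averaged 0.586 ± 0.409 CPM in KO libraries and 10.6 ± 5.77 CPM in WT libraries. Mmp15 and Mmp28, which encode a membrane-type enzyme and an epithelial enzyme, averaged 208 ± 16.1 and 22.2 ± 5.91 CPM in KO libraries, against 220 ± 36.1 and 21.5 ± 3.55 CPM in WT libraries. These 2 genes were picked with their values known, and their edgeR adjusted p was 0.868 and 0.943. The other TIMP genes did not pass in edgeR, with log2 fold changes (± SE) of Timp2 at -0.69 ± 0.25, Timp3 at -0.72 ± 0.29 and Timp4 at -0.58 ± 0.64.

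Genes that activate, bind or clear the enzymes included 0 of 10 called in edgeR, where 5 were lower at an unadjusted p below 0.05, and 5 lower in DESeq2. The shares of all genes to set beside these counts, and those of the lists below, are again 7.85% and 2.97%. Thbs1, which encodes thrombospondin 1, had the smallest p of this list. It averaged 97.2 ± 36.7 CPM in KO libraries and 348 ± 36.1 CPM in WT libraries (-1.84 ± 0.29, edgeR adjusted p = 0.0595). Plat, the tissue plasminogen activator, averaged 9.80 ± 2.71 CPM in KO libraries and 33.7 ± 13.7 CPM in WT libraries (-1.78 ± 0.33, edgeR adjusted p = 0.0848). Lcn2, whose protein binds Mmp9 in human neutrophils, averaged 15.1 ± 8.92 CPM in KO libraries and 120 ± 76.8 CPM in WT libraries (edgeR adjusted p = 0.0848). Cytokines known to induce metalloproteinases included 0 of 8 called in edgeR, where 7 were lower at an unadjusted p below 0.05, and 6 lower in DESeq2, with a median of -1.76. Il11 stood at -2.96 ± 0.44, Il1a at -2.81 ± 0.51 and Il1b at -1.92 ± 0.41 (edgeR adjusted p = 0.0595, 0.0821 and 0.116). Among 7 receptors of these cytokines 1 was lower in DESeq2 and none in edgeR, where 5 were lower at an unadjusted p below 0.05, with Il1r1 at -1.17 ± 0.25.

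AP-1 and ETS factor genes showed a median of -0.37 over 13 genes, with none called in edgeR, 5 lower and 2 higher (Jund and Etv4) at an unadjusted edgeR p below 0.05 (5.17% of all genes were higher at that level), 2 lower in DESeq2 (Fosl1 at -1.75 ± 0.43 and Junb at -0.53 ± 0.14) and 1 higher in DESeq2 (Etv4 at 1.10 ± 0.30). Fos and Jun, chosen after their values were seen, had log2 fold changes of -0.10 ± 0.18 and -0.16 ± 0.13 (edgeR adjusted p = 0.848 and 0.628). Of 14 substrate genes none was called in edgeR, 2 were lower at an unadjusted p below 0.05, and 1 was lower in DESeq2, Tnc, which encodes tenascin C (-1.21 ± 0.33). Their median of -0.535 became -0.156 without KO 3 and -1.15 without KO 1. The median of the 10 genes described here was -1.26 without KO 3 and -2.36 without KO 1.

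Among 11283 other genes with a mean of at least 5 CPM, the 5 whose pattern over the 6 libraries was most like that of Mmp3 were Inhbb, Thbs1, Chil1, Gfpt2 and Socs3. The root mean square difference of their centred log2(CPM + 0.5) values from those of Mmp3 was 0.219 for Inhbb, a subunit of activin, and 0.222 for Thbs1, the matrix protein thrombospondin 1. It was 0.286 for Chil1, a chitinase-like protein, 0.293 for Gfpt2, an enzyme of hexosamine synthesis, and 0.296 for Socs3, an inhibitor of cytokine signalling. With 6 libraries in 2 groups, this likeness mostly ranks genes by a similar difference between KO and WT.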

How the data were processed

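Colon RNA of KO and WT mice, in 3 libraries each, was sequenced after Trizol extraction and SMARTER mRNA-Seq library preparation, per the labels' protocols. Per the submitters' processing notes, builds GRCm38, mm10 and mm39 were involved, with no step assigned to any. No aligner, counting program or annotation release is named in the sources used here. Read counts per gene are whole numbers and were used as deposited. TPM values are those of the authors and sum to the same total in each library. The log2 fold changes and p-values deposited by the authors name no tool and were quoted as the authors' own.

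Counts were tested with edgeR 4.0.16 in R 4.3.3 (TMM factors, filterByExpr, quasi-likelihood F-test, Benjamini-Hochberg over all 14553 genes passing the filter, adjusted p below 0.05). All 10 members passed the filter. Standard errors were derived from the F statistic and are approximate. CPM were scaled with TMM factors. DESeq2 1.42.0 and limma 3.58.1 (voom, and log2(TPM + 1)), other scalings and filters, and leaving out each library served as alternatives. The steps were tested on simulated data. Mmp3 and Mmp10 transcripts share 140 runs of 50 bases (7.99% and 8.37% of their runs), and no other pair of members shared one. The read length is not stated, so how many reads this could affect is unknown. Intervals set by a count of 0 (3 counts) cover counting error only.

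The members, the gene lists and the naming rule (all members, and in each other list the genes called or up to 3 with the smallest p) were chosen with earlier results of these data known. The list of other inhibitor genes is not reported here beyond the TIMP genes. Protein sequences were not used here, so the planned protein identities were not computed.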

Additional observations from a re-analysis of the deposited data

How the results depend on the processing

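All 140 alternative fold changes of the 10 genes kept their direction. Of these, 5 lost a call, all for Mmp3 with 1 library left out, and 8 gained one, for Mmp10, Mmp13, Mmp19 and Timp1 with DESeq2, for Mmp10 and Mmp13 with the replicate block, and for Mmp9 and Timp1 without KO 1. The number of the 10 genes called was 1 with all 6 libraries, 5 with DESeq2, 3 with the replicate block, 2 at an adjusted p below 0.1, and 0 to 3 when 1 library was left out. Over all genes, 23 calls became 9 with DESeq2 size factors in edgeR, 39 with upper-quartile factors, 548 with DESeq2, 69 with no count filter, 81 with the replicate block, 58 with limma on log2(TPM + 1), 134 at an adjusted p below 0.1, and 1 to 29 when 1 library was left out. The cause was not tested.

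The labels do not say whether the replicate numbers pair the libraries, and correlations over 3 libraries per group cannot settle this. Deviations of same-numbered KO and WT libraries from their group means correlated at -0.419, -0.15 and -0.429, and no library correlated best with its own number.

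Of 30 ratios to markers, 5 changed sign when 1 library was left out. Over these fits the KO minus WT log2 difference of Mmp7 ran from -0.51 to 1.02 against fibroblast and from -0.086 to 1.22 against macrophage markers. Mmp14 against fibroblast markers ran from -0.32 to 0.36. Mmp3 and Mmp13 against neutrophil markers ran from -0.00049 to 0.73 and from -0.068 to 0.72. Using TPM in place of counts changed no sign. Mmp1b, with 1 count over all libraries, was not detectable at this depth.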
